A study of Mus musculus with 2 samples.

Results

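Toll-like receptors signal through a small set of cytoplasmic adaptors and kinases, and 10 mouse genes of that relay are described here: the adaptor genes Myd88, Tirap, Ticam1 and Ticam2, the kinase genes Irak1, Irak2, Irak3 and Irak4, and Traf6 and Traf3. They were taken by symbol from the probes of a one-colour Agilent mouse array, and all 10 were found, of 20659 genes that the probes name. They are represented by 14 probes and 23 spots, and all 14 probes were well above background on both arrays, so no member was lost to a filter on dim signals. The study holds 2 arrays, each hybridised with Cy3-labelled RNA from a culture of RAW246.1 cells, a mouse line that the labels call macrophage. The mock culture had received PBS. The treated culture had received synthetic miR-122, a liver microRNA, at 5 μg/mL, and the labels give no genotype, treatment time or transfection agent. The comparison addresses how macrophages respond to miR-122 from the liver, though liver-derived miR-122 and alveolar macrophages were not measured. The title of the sample whose source name and description say miR-122 contains the word without, and the treatment text is identical for both samples, so each direction below rests on the source names.

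Activated Toll-like receptors bind adaptors through a shared TIR domain. MyD88, brought to some receptors by TIRAP, assembles IRAK4, IRAK1 and IRAK2 into a complex that engages the ubiquitin ligase TRAF6 and leads to NF-kB and MAP kinase activation. TRIF, the product of Ticam1, serves TLR3 directly and TLR4 through the bridging adaptor TRAM, the product of Ticam2, and engages TRAF3 and TRAF6 on the way to interferon beta. IRAK-M, the product of Irak3, is a kinase-dead relative best known as a brake on this relay in monocytes and macrophages.

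The promoter of Myd88 is shown because this gene had the largest difference among the members, and a short stretch upstream of Traf3, the member with the lowest difference, because it holds a motif match. Sequences are from RefSeq for build GRCm38.p6, read 5′ to 3′ on the strand of the gene. The Myd88 window is chr9:119340019-119340268, minus strand, and ends at the base before the annotated start. The Traf3 stretch is chr12:111166340-111166369, plus strand, and ends at the base before the annotated start used in that table. Capitals mark motif matches.
Myd88: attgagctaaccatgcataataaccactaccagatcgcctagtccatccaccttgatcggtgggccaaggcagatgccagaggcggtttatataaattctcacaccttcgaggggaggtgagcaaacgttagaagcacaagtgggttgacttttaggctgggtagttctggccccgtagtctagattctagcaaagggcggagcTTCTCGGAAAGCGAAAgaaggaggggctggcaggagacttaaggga
Traf3: cgcgcgcccaggcggcccgcGGGGATTTCC

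The capitals of Myd88 cover a pair of overlapping matches. The first is the core of an interferon-stimulated response element, searched as GAAANNGAAA, which lies at bases -40 to -31 from the start and reads GAAAGCGAAA. The second is a gamma-activated site, searched as TTCNNNGAA, a motif that reads the same on both strands, at bases -46 to -38. The capitals of Traf3 are a match to the NF-kB consensus at bases -10 to -1. Windows of 250 bases before the start were found for 9 of the 10 members, as 12 windows, and were searched on both strands. The interferon motif was in 1 of these genes and in 2.98% of all 32851 windows of the same length, the gamma-activated site in 1 and in 7.02%, the NF-kB consensus in 1 and in 3.9%, and the AP-1 motif TGANTCA in 0 and in 6.75%. The GC content of the Traf3 window was 85.2%, higher than in 99.9% of all windows, against 51.2% for Myd88 and a median of 52.4%. A match describes letters in a window and does not show that a factor binds there.

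Processed signals are given first as the scanner software wrote them, with the error estimate of the software for that spot. It concerns the measurement of the spot and not the spread between cultures. Except for dim probes, this estimate was nearly a fixed share of the signal. The miR-122 array was dimmer as a whole, with a 75th percentile of log2 signal that differed by -0.28 from that of the PBS array. Differences were therefore taken after subtracting the 75th percentile of each array and are miR-122 minus PBS on the log2 scale, so a member of equal raw signal on both arrays has a positive difference. The median difference was 0.09 over 15022 genes, those with a symbol and a main probe well above background on each array. With 1 array per group there is no replicate, and no p-value, standard deviation between cultures or test of any difference can be given. Where a gene has several probes, the brightest stands for it. Probes bind with different strength, so signals of different probes mark how far a spot lies above background and do not compare amounts of RNA between genes. More RNA per cell and more cells of a kind cannot be told apart in these bulk samples.

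**Figure D1:**
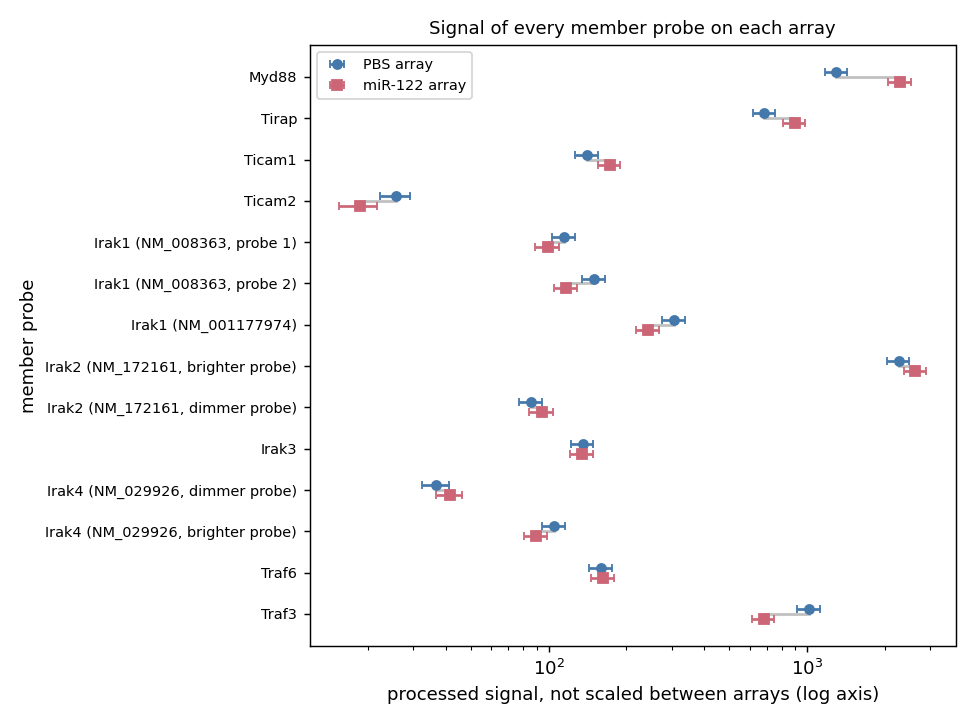
Processed signal (log axis) of the 14 member probes with PBS (circles) and miR-122 (squares), with the error estimate of the scanner software as bars; the 2 arrays are not scaled to each other. The bars of the arrays are apart for 6 probes: Myd88 and Tirap lie higher with miR-122, and Traf3, Ticam2 and 2 of the Irak1 probes lie lower before scaling.

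Of the 10 members, Myd88 alone was higher with miR-122 by 2-fold or more, and 0 were lower by that size. Among all genes 4.57% were higher by 2-fold or more and 1.78% were lower by it, so a count of 1 in 10 is no result about the set. At a lower size of 1.5-fold, 2 members were higher, Myd88 and Tirap, beside 12.1% of all genes, and 0 were lower, beside 5.99%. Differences ranged from -0.31 for Traf3 to 1.09 for Myd88, with a median of 0.28, and of 0.27 without Myd88. Against the median of all genes, 6 members lay above and 4 below. Before any scaling, 5 members were brighter on the miR-122 array (Myd88, Tirap, Ticam1, Irak2 and Traf6) and 5 were dimmer (Ticam2, Irak1, Irak3, Irak4 and Traf3).

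**Figure D2:**
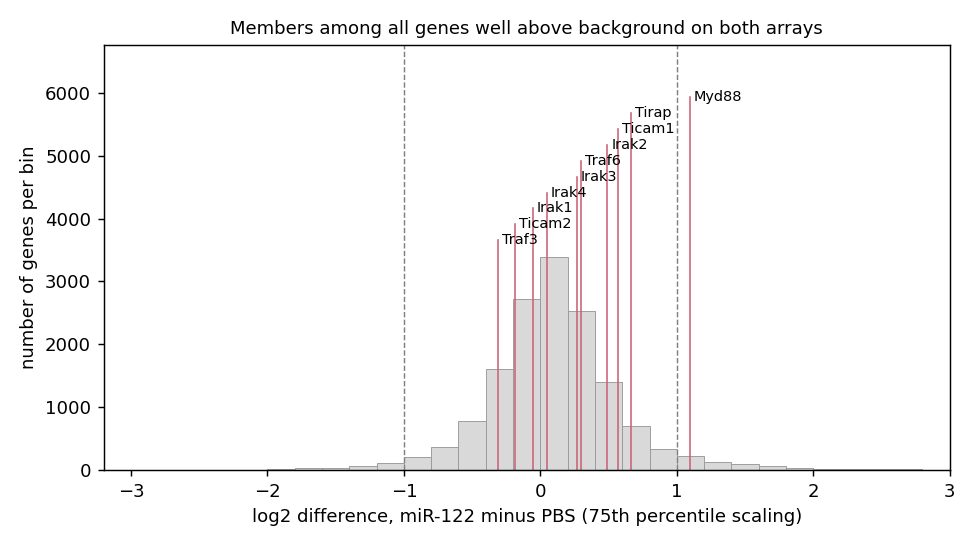
Number of genes (y axis) in bins of the log2 difference, miR-122 minus PBS (x axis), for the 15022 genes well above background on both arrays; lines mark the 10 members and dashed lines the 2-fold limits. Myd88 is the only member beyond a limit, the other members lie within the bulk of the genes, and genes with a difference above 3 are not drawn.

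Myd88 (NM_010851) encodes the adaptor used by nearly all Toll-like receptors and by receptors of the interleukin-1 family. Its probe is printed 10 times on each array. The spots ranged from 1252 to 1379 with PBS, with a median of 1285, and from 2229 to 2397 with miR-122, with a median of 2280. The highest PBS spot lay far below the lowest miR-122 spot, so the spots of the arrays did not overlap. The scanner software flagged 2 of the 10 spots on each array, which left 8, and their log2 signals had standard deviations of 0.04 and 0.03. Spots of an array share 1 RNA sample, and their spread is that of the printing and the scan. From mean signals of 1299 and 2288, the scaled difference was 1.09 with a software error of 0.20, or 2.13-fold higher, and 3.74% of all genes had a difference at least as high. Myd88 was the only member outside the 5th to 95th percentile of genes of similar level, which ran from -0.66 to 0.78 when the genes were put in 10 bins of level. The difference kept its direction in 6 ways of scaling. It was smallest with median scaling, at 0.92 or 1.89-fold, 1.01 with normexp and 1.05 with quantile normalization.

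**Figure D3:**
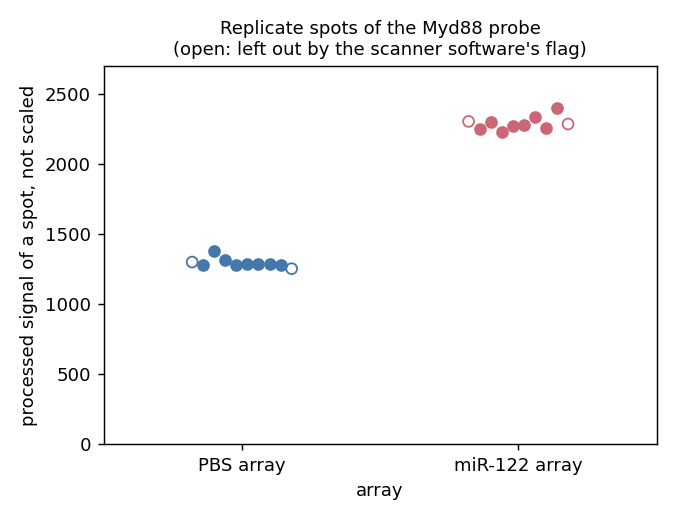
Processed signal of each of the 10 replicate spots of the Myd88 probe, grouped by array (PBS left, miR-122 right) and not scaled between arrays; open symbols are spots that the scanner software flagged and that were left out. The PBS spots lie between 1252 and 1379 and the miR-122 spots between 2229 and 2397.

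Tirap (NM_054096) encodes the membrane-bound adaptor, also called MAL, that recruits MyD88 to TLR2 and TLR4. Its signal was 683.4 ± 68.4 with PBS and 894.2 ± 89.5 with miR-122. The miR-122 spot was the brighter by more than the sum of both errors. The scaled difference was 0.66 with an error of 0.20, 1.58-fold higher, and 9.54% of all genes had a difference at least as high. It was 0.48 at its lowest, with normexp background correction, and 0.68 at its highest, with loess.

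Ticam1 (NM_174989) encodes TRIF, the adaptor for TLR3 and for the endosomal signal of TLR4. The probe read 140.8 ± 14.3 with PBS and 172.3 ± 17.4 with miR-122, brighter by about the sum of the errors. After scaling the difference was 0.57 with an error of 0.21, or 1.48-fold higher, just under the 1.5-fold size. The 5th to 95th percentile of genes in its bin of level ran from -0.86 to 0.92 and included it. The scalings gave 0.39 to 0.57.

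Ticam2 (NM_173394) encodes TRAM, which links TLR4 to TRIF. Its probe was dim, with a signal of 25.6 ± 3.39 with PBS and 18.6 ± 3.10 with miR-122, against lowest signals well above background of 10.8 and 11.5. Its raw difference of -0.46 was larger than the error of 0.31, and the scaled difference of -0.19 was smaller. Genes of similar level had a median difference of 0.23, and against that median Ticam2 differed by -0.42. The direction depended on the processing: normexp gave 0.13, and the other scalings gave -0.44 to -0.19.

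The 4 adaptor genes thus ran from -0.19 to 1.09 with a median of 0.62, and 3 of them, Myd88, Tirap and Ticam1, were positive in all 6 scalings. The 4 IRAK genes ran from -0.06 to 0.49 with a median of 0.16, and Traf6 and Traf3 lay on opposite sides of 0. These medians over 2 to 4 genes were not tested against each other.

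Irak1 encodes the kinase that is phosphorylated by IRAK4 and then recruits TRAF6. It had 3 probes, which gave nearly the same result. The brightest, annotated to NM_001177974, read 306.1 ± 30.7 with PBS and 243.0 ± 24.4 with miR-122. The 2 probes annotated to NM_008363 read 150.2 ± 15.2 and 115.3 ± 11.8 with PBS, and 116.7 ± 11.9 and 99.2 ± 10.2 with miR-122. Before scaling all 3 were dimmer with miR-122, and the scaled differences were -0.06, -0.09 and 0.06, a range of 0.15, each smaller than its error. The brightest probe stayed below 0 in all 6 scalings, between -0.23 and -0.06, and 66.2% of all genes had a difference at least as high.

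Irak2 encodes the kinase that sustains the response after IRAK1 and is itself counted among genes induced by Toll-like receptors. Its brighter probe (NM_172161) read 2262 ± 226 with PBS and 2624 ± 262 with miR-122. The dimmer probe, annotated to the same transcript, read 85.4 ± 8.82 and 94.0 ± 9.73. Both probes were somewhat brighter on the miR-122 array, and the scaled differences of 0.49 and 0.41, with errors of 0.20 and 0.21, differed by 0.08. The brighter probe was 1.41-fold higher, with 15.9% of all genes at least as high, and was positive under the 6 scalings, from 0.32 to 0.49. Genes in its bin of level ran from -0.57 at the 5th to 1.17 at the 95th percentile.

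Irak3 (NM_028679), the gene for the inhibitor IRAK-M, had nearly the same raw signal on both arrays, 135.4 ± 13.7 with PBS and 134.3 ± 13.7 with miR-122. Its scaled difference of 0.27, with an error of 0.21, therefore comes from the scaling step. It ranged from 0.09 with median scaling to 0.27.

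Irak4 encodes the kinase that starts the cascade at MyD88. The probes of Irak4, both annotated to NM_029926, disagreed more than those of the other members. The brighter read 105.2 ± 10.7 with PBS and 89.8 ± 9.30 with miR-122. The dimmer read 36.8 ± 4.40 and 41.4 ± 4.87. The brighter was thus dimmer with miR-122 and the other one brighter, and the scaled differences were 0.05 and 0.45, 0.40 apart, with errors of 0.21 and 0.24. Different probes of a gene had a pooled standard deviation of 0.30 over 3575 genes. The brighter probe took both signs over the scalings, from -0.13 to 0.13, and the dimmer was positive in all 6.

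Traf6 (NM_009424) encodes the ubiquitin ligase on which the MyD88 branch converges. Its signals of 160.0 ± 16.2 with PBS and 162.0 ± 16.4 with miR-122 were nearly equal. The scaled difference was 0.29 with an error of 0.21, and 0.12 with median scaling. As for Irak3, the positive value is that of a gene whose raw signal hardly differed.

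Traf3 (NM_011632) encodes the adaptor ligase used by the TRIF branch for interferon induction, which also restrains the alternative NF-kB pathway. It had a signal of 1019 ± 102 with PBS and 678.9 ± 67.9 with miR-122. The miR-122 spot was the dimmer by more than the sum of both errors, and this raw difference of -0.59 was the largest negative one among the members. After scaling it was -0.31 with an error of 0.20, or 1.24-fold lower, and 14.7% of all genes had a difference at least as low. All 6 scalings placed Traf3 below 0, from -0.48 with median scaling to -0.24 with normexp.

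**Figure D4:**
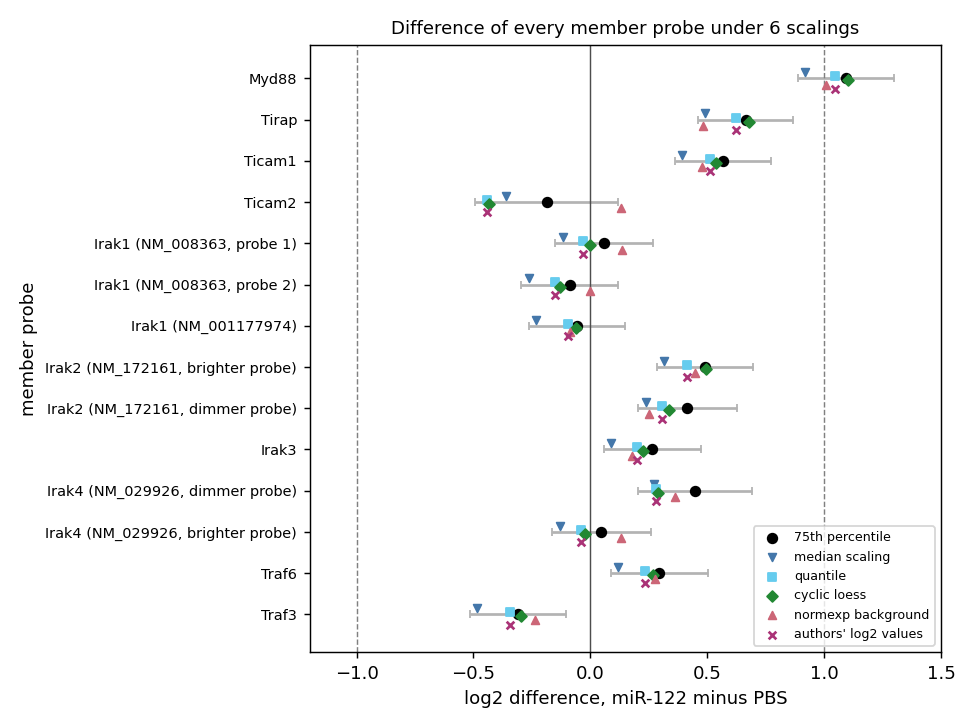
Log2 difference, miR-122 minus PBS (x axis), of the 14 member probes under 6 ways of scaling (symbols), with the error of the scanner software around the value scaled to the 75th percentile; dashed lines are 2-fold limits. Myd88 lies near or above the upper limit in every scaling, Traf3 lies below 0 in every scaling, and Ticam2, the brighter Irak4 probe and the dimmest Irak1 probe take both signs.

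Over the main probes of the 10 members, 6 were positive in all 6 scalings (Myd88, Tirap, Ticam1, Irak2, Irak3 and Traf6), 2 were negative in all (Irak1 and Traf3) and 2 took both signs (Ticam2 and Irak4). With the main scaling, the differences of 4 members, Myd88, Tirap, Ticam1 and Irak2, were more than 2 times the software error. That error was 0.20 or 0.21 for every member but Ticam2, at 0.31, so this size is close to a fixed cutoff on the difference. Which members passed this size depended on the scaling. With median scaling Ticam1 and Irak2, at 0.39 and 0.32, fell short of it. Myd88, Tirap and Traf3, at 0.92, 0.49 and -0.48, exceeded it there. Before any scaling Tirap, Ticam1 and Irak2 differed by 0.39, 0.29 and 0.21, each less than 2 times its error. Myd88 and Traf3, at 0.82 and -0.59, exceeded that size before scaling. In the authors' deposited log2 values Myd88 was 10.21 with PBS and 11.26 with miR-122, a difference of 1.05. The same values gave 0.62 for Tirap, 0.51 for Ticam1, 0.41 for Irak2 and -0.34 for Traf3. These differences are nearly those of quantile normalization, so the authors' values add little to the count of 6 scalings.

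Genes around the members in the same pathway were counted in lists chosen with earlier results of these data known. In the lists other than those of outputs, 87 signalling genes were well above background on both arrays, with a median difference of 0.33. These 87 include 3 genes that are also in a list of outputs: Irf7, Tnfaip3 and Nfkbia. Of the 87, 11 (12.6%), Irf7 and Tnfaip3 among them, were higher and 1 was lower by 2-fold or more, beside 4.57% and 1.78% of all genes. The same shares of all genes stand beside the count of each list below. Since the lists were chosen in that way, the counts are no test of enrichment. Of 19 receptors and co-receptors, 1 was higher by that size and 1 lower, with a median of 0.24. Tlr3, the receptor upstream of TRIF, went from a signal of 49.3 to 487.4, and Il1rl1, which encodes the interleukin-33 receptor ST2, a user of MyD88, went from 766.0 to 283.2, a difference of -1.16. Tlr7 and Ly86, the gene of a co-receptor of the TLR4 relative RP105, both differed by 0.78.

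Among 23 kinases and ubiquitin enzymes of the MyD88 branch, 1 was higher by 2-fold or more and 0 were lower, with a median of 0.17. That gene was Peli1, which encodes a ubiquitin ligase of the Pellino family that binds IRAK proteins, at a signal of 659.3 with PBS and 2765 with miR-122, or 5.08-fold higher after scaling. Irf5, Pik3ap1 and Map2k1 followed with 0.94, 0.80 and 0.71. In the TRIF branch, 2 of 15 genes were higher by 2-fold or more and 0 were lower, with a median of 0.40. These were Irf7, 4.93-fold, and Azi2, which encodes an adaptor of the kinase TBK1, 2.15-fold. Azi2 was 1.90-fold with median scaling, 1.96-fold with normexp and 1.94-fold as the mean over its probes. Casp8 and Tank, whose products act with TRIF and TBK1, differed by 0.94 and 0.93.

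Of 21 negative regulators, 6 were higher by 2-fold or more and 0 were lower, with a median of 0.36. These were Nlrc5 at 4.65-fold, Trim30a at 2.90-fold, the MAP kinase phosphatase gene Dusp1 at 2.63-fold, the deubiquitinase gene Usp25 at 2.53-fold, Socs1 at 2.09-fold and Tnfaip3 at 2.08-fold. Nlrc5, Trim30a and Socs1 are also known as interferon-inducible genes. Socs1 and Tnfaip3 were under 2-fold with median scaling, and the other 4 were past 2-fold in all 6 scalings. Of 9 other TRAF genes and genes for TRAF-binding proteins, Tifa, whose product activates TRAF6, was 2.54-fold higher, Traf1, Traf5 and Traf3ip2 differed by 0.95, 0.80 and 0.55, and 0 were 2-fold lower.

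The lists of outputs had higher medians than the members. Beside 4.57% of all genes, 6 of 8 genes taken as outputs of the MyD88 branch were higher by 2-fold or more, with a median of 1.13. So were all 8 genes taken as outputs of the TRIF branch, with a median of 4.89. The first count was 4 of 8 with median scaling, quantile normalization, normexp and the authors' values, and 3 of these genes were past 2-fold in all 6 scalings, as Cxcl2, Nfkbiz and Tnfaip3 fell short in at least 1, while the second was 8 of 8 in each. The genes taken as TRIF outputs were Ifnb1, Ccl5, Cxcl10, Ifit1, Ifit2, Isg15, Rsad2 and Irf7. Both output lists were chosen with earlier results of these data known, and which pathway raised their genes was not tested. The output lists share 3 genes with the signalling lists above, among them Irf7 and Tnfaip3. The member of the MyD88 branch with the highest difference was Myd88 at 1.09, and the TRIF adaptor gene Ticam1 was at 0.57. The reference genes Actb, Gapdh and Hprt differed by 0.21, 0.18 and -0.25. With loess Actb and Gapdh differed by -0.05 and -0.07, so their sign depended on the scaling.

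**Figure D5:**
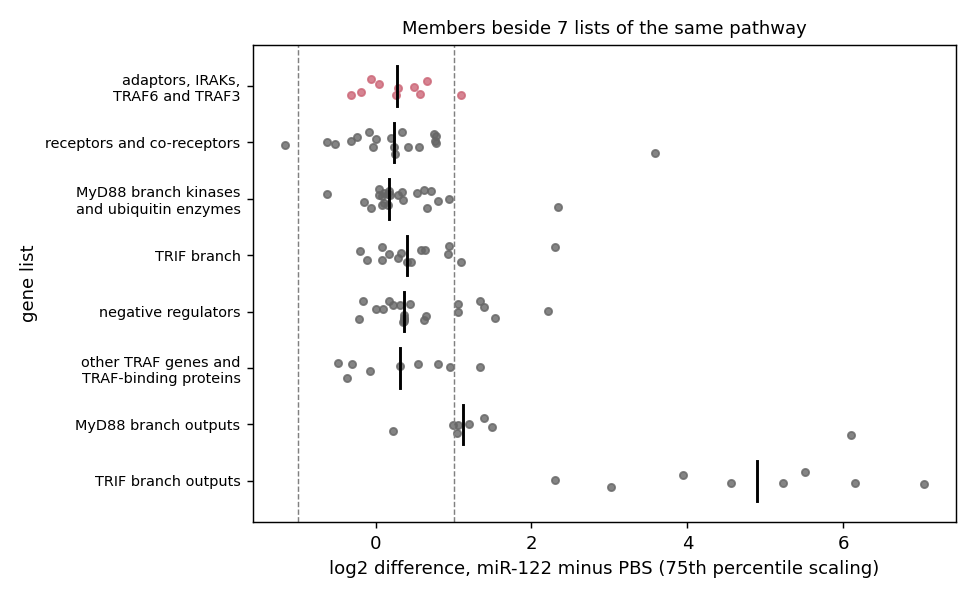
Log2 difference, miR-122 minus PBS (x axis), of each gene well above background on both arrays in the member set and in 7 lists of the same pathway (y axis); black bars are list medians and dashed lines 2-fold limits. The members have a median of 0.28, the lists of receptors, enzymes and regulators between 0.17 and 0.40, and the output lists 1.13 and 4.89.

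Of 10 macrophage markers 8 were well above background on both arrays, among them Csf1r, Itgam, Adgre1 and Cd14, while Cd68 and Mertk were not. After scaling they went both ways: Fcgr1, Spi1, Ptprc and Cd14 differed by 3.34, 0.58, 0.45 and 0.25, and Adgre1, Lyz2, Csf1r and Itgam by -0.58, -0.71, -0.78 and -0.85. Their summed unscaled signal of 88354 with PBS and 59867 with miR-122 is mostly that of Csf1r (46202 and 22246) and Cd14 (31514 and 30847). Lists of hepatocyte, T cell, B cell, neutrophil and fibroblast markers summed to between 55.8 and 668 with PBS and between 61.7 and 788 with miR-122. Alb, Apoa1, Cd3d, Cd3g and Ms4a1 were not well above background. Other markers of these lists were so on both arrays. Among them were Lck (374 with PBS and 628 with miR-122, a scaled difference of 1.02), S100a8 (599 and 630), Cd3e (230 and 146) and Tat (175 and 174). Dendritic cell markers summed to 31095 and 26683, nearly all of it Siglech, and Zbtb46 differed by 3.09. Their part in the differences of the members was not tested.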

How the data were processed

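Gene expression was measured on 2 one-colour arrays, 1 for PBS and 1 for miR-122, and groups were taken from the source names. Per the file headers, the deposited spot intensities were made with Agilent Feature Extraction 11.0.1.1, background-subtracted and spatially detrended, with no normalization between arrays. The authors also deposited processed log2 values, by a method not given in the sources used here. The columns each have a median of 5.16 and are not centred by gene, and across probes each correlated at 0.997 with the log2 signal of the array it is named for and at 0.985 with the other array's. Their differences were nearly those of quantile normalization of the same signals, at 1.05 for Myd88 and 0.20 for Irak3 in both. Among the 6 scalings the authors' values are therefore not independent of quantile normalization. RNA extraction is described in the labels by RIPA buffer only.

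Of 44397 spots per array, 1377 controls were left out, as were flagged spots (145 on the PBS and 196 on the miR-122 array); none was saturated. Log2 signals were averaged over the spots of a probe and the 75th percentile was subtracted. Accessions were matched without versions to RefSeq genes of GRCm38.p6, which named 27234 of 39429 probes. The array grid is annotated to another build, so gene coordinates were not used. Well above background were 71.8% of probes on the PBS and 69.9% on the miR-122 array. The number of arrays limits the precision. The arrays had different positions on a slide, 1 3 with PBS and 1 4 with miR-122, and the values used here do not identify the slide. Position, or slide if the slides differed, cannot be told apart from treatment.

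Genes were counted at 2-fold, with no test. Named are every member, and from each pathway list the genes past 2-fold and up to 4 with the largest difference. For the lists of outputs, counts and medians are given, with the names of the TRIF outputs. The members and lists were chosen with earlier results of these data known. The error of a difference combines the software's relative errors of both arrays. Alternatives were median scaling, quantile normalization, cyclic loess (span 0.3), normexp (offset 50, on median spot intensity), the authors' values, flagged spots kept, stricter and looser dim-probe filters, the mean over a gene's probes, and thresholds of 1.5-fold and 4-fold. The counting step was checked on simulated data. R 4.3.3, limma 3.58.1, Python 3.11.15, numpy 2.4.6 and pandas 2.3.3 were used.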

Additional observations from a re-analysis of the deposited data

How the results depend on the processing

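Of 174 combinations of a member's gene or probe value with an alternative, 172 moved by less than the standard deviation of 0.30 between probes of a gene. The other two are the single Ticam2 probe with normexp, counted as gene and as probe, at 0.13. The median difference of the members stayed within that spread, though it fell from 0.28 to 0.10 with median scaling. Many of these combinations could hardly move. All 14 member probes were well above background on both arrays, 7 members have 1 probe, and each main probe counts as gene and as probe. The spread of 0.30 also exceeds several of the member differences, so the sign changes of the brighter Irak4 probe count as unmoved. The number of members at least 2-fold higher was 1, and 0 with median scaling, 2 at 1.5-fold and 0 at 4-fold. Over all pathway lists 23 genes were at least 2-fold higher and 1 lower; these counts were 40 and 3 at 1.5-fold and 12 and 0 at 4-fold, and 2 genes were lower without a filter on dim probes. Median scaling moved the median difference of all genes by -0.18, quantile normalization by -0.12 and the authors' values by -0.12, and median scaling put 471 of all genes above and 456 below by 2-fold or more, in place of 687 and 268. No paired analysis was possible because each group holds 1 array. Dim signal limits Ticam2 and the dimmer Irak4 probe.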
